A study of Mus musculus with 18 samples.

Results

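The nuclear genes of oxidative phosphorylation were followed across cultured cells sorted under T cell labels, of 2 genotypes. Members were the protein-coding genes whose symbols begin with Nduf followed by a, b, c, s or v, with Uqcr, with Cox4 to Cox8 or with Atp5, together with Sdha to Sdhd. Of 55487 genes in the table, 107 carried such a symbol, and 94 of these were annotated as protein-coding and formed the set. They comprised 36 subunits of complex I, 8 complex I assembly factors (the Ndufaf genes), 4 subunits of complex II, 8 of complex III, 20 of complex IV and 18 genes of ATP synthase. Ndufa4 and Ndufa4l2 were placed with complex IV, where the Ndufa4 protein is known to sit. The 94 members include 1 pair that shares a symbol, since Atp5o has a second, weakly counted gene identifier. At least 1 count was found for 92 members, and 88 passed the filter on low counts that 12693 of all genes passed.

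The 18 libraries came from mouse spleen cells sorted under the labels CD8, CD4 and Treg, with 3 libraries per cell type and genotype. The WT groups carry Foxp3 YFP/cre, an allele that drives a fluorescent Cre recombinase from Foxp3 and was present in both genotypes. The KO groups carry Foxp3 YFP/cre and Ebi3 -/-, the loss of the gene for a subunit of the cytokines IL-27 and IL-35. All cells were cultured for 72 h with anti-CD3 on the plate at 2 µg/ml, anti-CD28 at 2 µg/ml and IL-2 at 10 ng/ml, and tags were read from the 3' end of messenger RNA with unique molecular identifiers. The labels give neither the ages and numbers of the mice nor whether replicates came from different mice. The p-values therefore reflect only how far these libraries spread, which may be technical.

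Oxidative phosphorylation passes electrons from NADH through complex I, or from succinate through complex II, to complex III and then to oxygen at complex IV. Complexes I, III and IV pump protons across the inner mitochondrial membrane, and ATP synthase, also called complex V, uses the gradient to make ATP. Most subunits are encoded in the nucleus and a few in mitochondrial DNA. T cells are known to raise both glycolysis and mitochondrial respiration after activation, and regulatory T cells are known to rely strongly on respiration.

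Total counts were 841892 to 1089003 in the 6 libraries labelled Treg and 1358671 to 2255950 in the other 12. Levels are given as CPM, counts scaled to a common library size after correction for composition by TMM. On that scale 3 counts, the limit that a count of 0 allows, equal 1.3 to 3.82 CPM depending on the library, which covers counting error only. The libraries labelled Treg had a count for 20034 to 20596 genes and the others for 16193 to 17338, in spite of the lower depth. Libraries 1 and 2 of the Treg WT group and libraries 1 and 3 of the Treg KO group differed by less than the sampling noise and were counted as 1 sample each in means, so that n is 2 in both Treg groups. This holds for means only. The tests took all 18 libraries as separate, so standard errors and p-values for Treg rest on 3 libraries per group and may be too small. Ebi3 itself was counted at 28.7 ± 0.838 CPM in CD8 WT and 28.4 ± 4.94 in CD8 KO, at 45.9 ± 12.3 in CD4 WT and 22.9 ± 2.82 in CD4 KO (SD, n = 3), and at 34.7 ± 6.82 in Treg WT and 30.2 ± 5.34 in Treg KO (SD, n = 2). The log2 fold change of Ebi3 between KO and WT was -0.98 ± 0.19 in CD4 (SE, unadjusted p = 9.98e-06, adjusted p = 0.127, edgeR's quasi-likelihood test). It was -0.01 ± 0.19 in CD8 and -0.195 ± 0.243 in Treg, and no adjusted p was below 0.127. Whether the counted 3' end lies outside the deleted part is not given, so the genotypes below are those of the labels.

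Markers of the labelled cells were set beside these libraries. Cd8a was at 142 to 243 CPM in the CD8 libraries and Cd4 at 99.5 to 156 CPM in the CD4 libraries, while each was at or near 0 in the other. In the libraries labelled Treg, Cd4 was at 33.9 to 67.0 CPM and Cd8a at 24.6 to 46.0 CPM. Foxp3, the gene that defines regulatory T cells, was at 0 to 1.27 CPM there, within the floor, and the summed level of 8 Treg markers was 229 to 409 CPM against 650 to 1179 in CD4 and 883 to 1378 in CD8 libraries. Whether the Foxp3 YFP/cre allele alters the counted 3' end of Foxp3 is not given, so the count of Foxp3 alone cannot decide the label. The label Treg was not borne out by the counts of these markers, and these are called the libraries labelled Treg. The 13 B cell markers summed to 4632 to 10927 CPM in the CD4 and CD8 libraries and to 8667 to 9276 CPM in those labelled Treg. The 8 T cell markers summed to less, at 1159 to 2029 CPM and 922 to 1368 CPM. The 11 erythroid and platelet markers summed to 635 to 1515 CPM and 1192 to 1262 CPM. RNA of other cells was thus present under all 3 labels.

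All members together summed to 13032 to 14760 CPM in the 12 CD4 and CD8 libraries and to 11485 to 12806 CPM in the 6 libraries labelled Treg, with no overlap. As a share of all counts, members took 1.33% to 1.5% and 1.1% to 1.19%. The group sums were 13723 ± 600 CPM in CD4 WT, 14419 ± 318 in CD4 KO, 13998 ± 583 in CD8 WT and 14268 ± 159 in CD8 KO (SD, n = 3), and 12117 ± 613 in Treg WT and 11655 ± 70.3 in Treg KO (SD, n = 2). The Treg WT sum was 0.883 times that of CD4 WT, and the Treg KO sum 0.808 times that of CD4 KO. By complex, the Treg WT to CD4 WT ratio was 0.924 for complex I, 0.767 for complex II, 0.842 for complex III, 0.919 for complex IV and 0.835 for ATP synthase. The ratio of Treg KO to CD4 KO was 0.833, 0.712, 0.804, 0.859 and 0.748 in the same order. Complexes II and III and ATP synthase lay lower in every library labelled Treg than in any CD4 or CD8 library, whereas complex I and complex IV ranges overlapped. In these bulk samples, fewer cells of a type and less RNA per cell cannot be told apart.

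**Figure D1:**
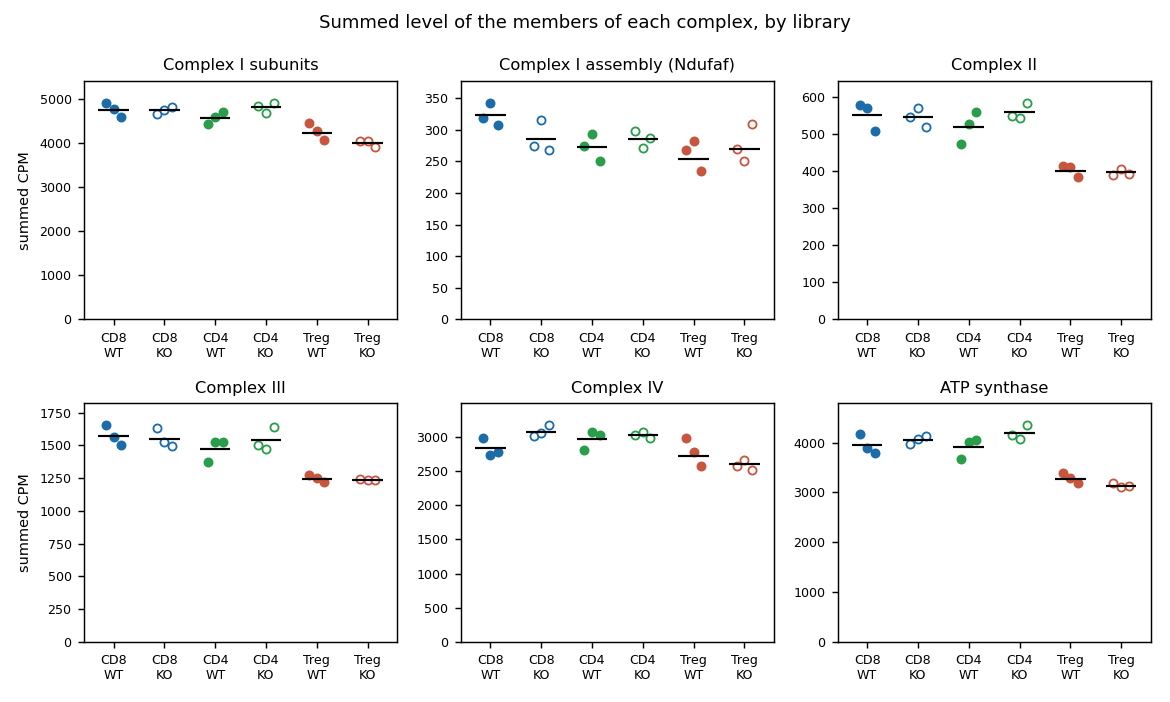
Summed level (CPM) of the members of each complex in each library, with filled points for WT, open points for KO and a black line for the group mean, in which agreeing Treg libraries count once. The 6 libraries labelled Treg sit below all others for complexes II and III and ATP synthase, with ATP synthase at 3118 to 3394 CPM there and 3669 to 4354 CPM elsewhere.

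The most strongly counted members were Atp5g3 (17388 counts over all libraries), which encodes the membrane-embedded subunit c of ATP synthase, Atp5a1 (16635), which encodes subunit alpha of its catalytic head, and Cox6c (14015), a small subunit of complex IV. Of the genes with tissue-type or alternative forms, 6 were at or near 0. Cox4i2 and Ndufa4l2 had 1 count each in all libraries together, Cox8b and Cox8c had 0, Cox7b2 had 17 and Cox7a1 had 50, and these 6 were not tested. Cox4i1, the general isoform of subunit IV, was at 186 to 249 CPM in the CD4 and CD8 libraries, Cox8a at 124 to 205 CPM and Cox7a2 at 229 to 322 CPM. Of the genes for subunit c, Atp5g3 was at 617 ± 18.1 CPM in CD4 WT, Atp5g1 at 150.0 ± 1.3 and Atp5g2 at 12.4 ± 1.36 (SD, n = 3). Tags were counted near transcript ends, so these CPM are not divided by length. The level of Atp5g2 is uncertain, since 99% of the 50-base words in its last 300 transcript bases also occur in other genes.

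Before the comparisons, promoter windows are shown for the 3 members with the lowest p in the comparison with most members called, Treg against CD4 in KO, among those with an entry in the table used, and for the 2 of lowest p whose stretch holds the core motif of NRF1, a regulator of many respiratory chain genes. They show which motifs lie upstream of these members, which were chosen by p whether or not they were called. Ndufa6 was not among the 6 members called higher in that comparison and was not called against CD4 in WT. The stretches come from RefSeq windows on GRCm38.p6 that run from 250 bases before to 50 bases after a start site, and only bases outside the annotated gene are printed, 5′ to 3′ on the gene's strand. Capitals mark the NRF1 core GCGCATGC, its near form GCGCNTGC (which includes the core) or the ETS core CCGGAA, on either strand.
Atp5c1, chr2:10080511-10080760, minus strand: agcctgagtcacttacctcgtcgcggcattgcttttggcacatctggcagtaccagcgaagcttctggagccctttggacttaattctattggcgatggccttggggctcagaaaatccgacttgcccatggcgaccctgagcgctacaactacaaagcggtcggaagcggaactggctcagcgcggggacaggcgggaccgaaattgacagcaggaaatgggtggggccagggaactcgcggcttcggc
Ndufb8, chr19:44555443-44555692, minus strand: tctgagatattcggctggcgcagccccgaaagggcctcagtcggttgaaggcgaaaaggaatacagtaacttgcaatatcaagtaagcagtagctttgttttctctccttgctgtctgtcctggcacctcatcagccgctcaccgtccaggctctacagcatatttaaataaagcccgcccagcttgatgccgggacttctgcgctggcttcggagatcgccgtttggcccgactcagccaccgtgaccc
Atp5b, chr10:128083057-128083272, plus strand: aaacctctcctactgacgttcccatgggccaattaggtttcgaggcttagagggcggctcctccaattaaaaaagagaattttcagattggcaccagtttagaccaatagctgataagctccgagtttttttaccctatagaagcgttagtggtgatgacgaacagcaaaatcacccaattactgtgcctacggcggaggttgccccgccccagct
Atp5l, chr9:44920743-44920992, minus strand: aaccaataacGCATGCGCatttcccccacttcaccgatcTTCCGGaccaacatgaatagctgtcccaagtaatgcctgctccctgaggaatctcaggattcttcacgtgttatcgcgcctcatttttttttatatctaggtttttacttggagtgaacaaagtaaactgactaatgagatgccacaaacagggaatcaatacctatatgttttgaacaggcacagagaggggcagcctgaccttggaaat
Ndufa6, chr15:82354323-82354541, minus strand: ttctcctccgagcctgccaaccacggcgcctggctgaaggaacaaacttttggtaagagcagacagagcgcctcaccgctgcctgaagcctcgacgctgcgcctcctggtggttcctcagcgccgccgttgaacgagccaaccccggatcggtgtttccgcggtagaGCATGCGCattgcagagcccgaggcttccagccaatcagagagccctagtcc

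None of these letters occurred in the windows of Atp5c1, Ndufb8 and Atp5b, which says nothing about the factors themselves. Of 79 windows of the 74 members that matched the table by symbol, 15.2% held the NRF1 core, 36.7% its near form and 35.4% the ETS core. Among all 32851 windows the shares were 2.71%, 9.61% and 14.9%. The members called lower in Treg against CD4 in KO held the NRF1 core in 4 of 33 windows and the near form in 12, and the members not called in 7 and 16 of 39. A match is a description of letters and not of a bound site.

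Between the libraries labelled Treg and the others, members changed in both directions, and more often downward. In WT, 10 of 88 members were higher and 24 lower in Treg than in CD4, and 12 were higher and 34 lower than in CD8. In KO, 6 were higher and 41 lower than in CD4, and 6 were higher and 40 lower than in CD8 (edgeR, quasi-likelihood test; called means a p under 0.05 after Benjamini-Hochberg adjustment over all genes tested). Among all genes, 43% were called between Treg and CD4 in WT, 50.3% between Treg and CD8 in WT, 48% between Treg and CD4 in KO and 44.2% between Treg and CD8 in KO. The members' shares of 38.6%, 52.3%, 53.4% and 52.3% were near that background, so that the number of calls is not a result about the members. By direction the shares lay apart from those of all genes. In the order Treg against CD4 and against CD8 in WT, then in KO, 27.3%, 38.6%, 46.6% and 45.5% of the members were lower, beside 18.2%, 21.4%, 20.3% and 19% of all genes. Higher members made up 11.4%, 13.6%, 6.82% and 6.82%, beside 24.8%, 28.8%, 27.8% and 25.1% of all genes. No test of this difference in shares was made. With the agreeing Treg libraries summed, 28, 44, 43 and 37 members were called in the same order, beside 5048, 5992, 5687 and 5202 of all genes.

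The median log2 fold change of the members was -0.14, -0.16, -0.29 and -0.28 in the same order, beside 0.05, 0.10, 0.10 and 0.05 over all genes and -0.04, -0.03, -0.02 and -0.06 over genes of like level. With library totals as the only scaling, the all-gene median moved to -0.06 and -0.01 in WT, and the split of higher and lower members to 6 and 36 against CD4 and to 7 and 41 against CD8. The Treg libraries of 1 genotype enter both of its comparisons, so these are not independent. The WT and KO comparisons share no library. Of the members lower against CD4, 23 were called in both genotypes, which is 95.8% of the WT list and 56.1% of the KO list, beside 82.2% and 74% for all genes. Of those higher against CD4, 6 were called in both, 60% of the WT list and 100% of the KO list, beside 84.1% and 75.2%. Against CD8, 26 lower members were shared (76.5% and 65%, beside 71.1% and 80%) and 4 higher members (33.3% and 66.7%, beside 73.7% and 84.6%). No member was called in opposite directions in the WT and KO comparisons with the same cell type. In all 4 comparisons 20 members were lower and 4 were higher (Ndufb2, Cox6a2, Atp5l and Ndufa2), and 20 members were called in none.

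**Figure D2:**
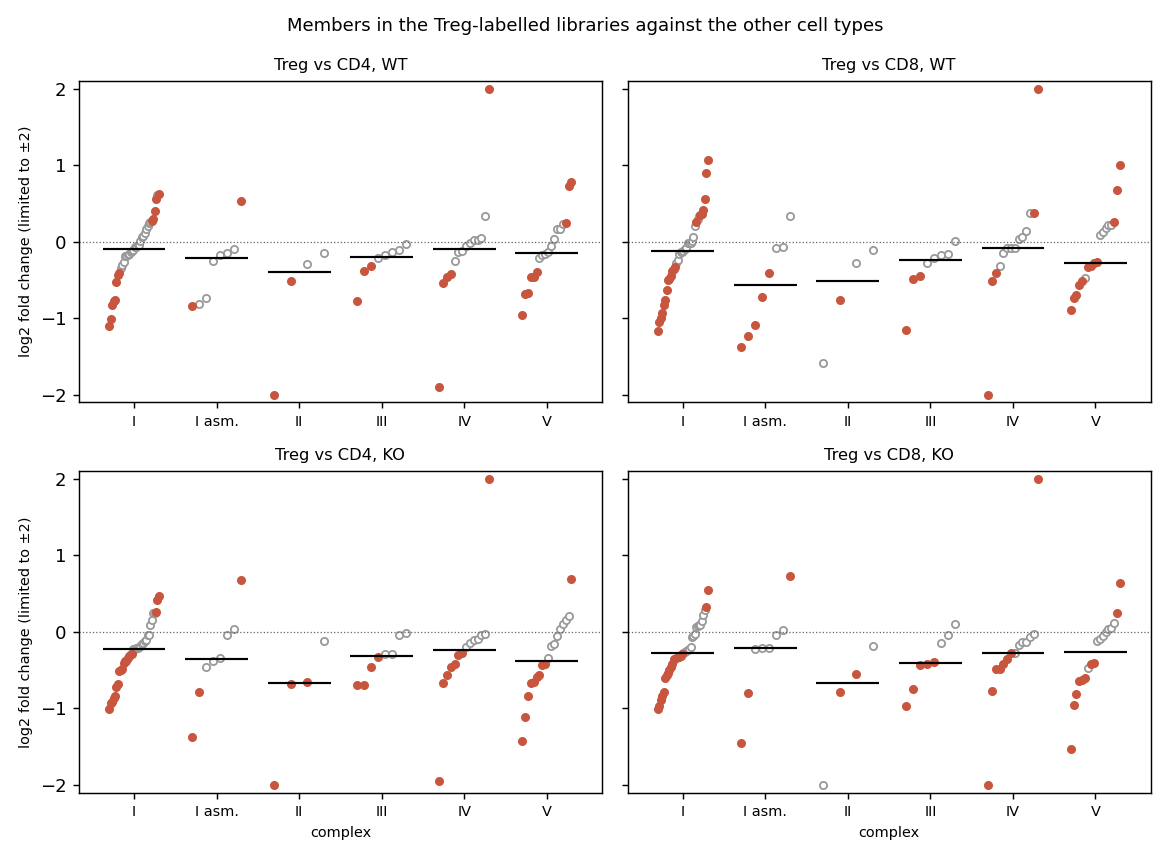
Log2 fold change of each tested member in the libraries labelled Treg against CD4 or CD8, in WT and KO, by complex (I asm. = Ndufaf assembly factors), with filled red points for members called, open grey points for the rest, a black line for the median and values limited to ±2. Medians lie below 0 in every class and panel, with no member of complex II or III called higher.

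Beside these counts, markers of T cells and of other cells are given, with 43% to 50.3% of all genes called as background. All 8 T cell markers had a negative log2 fold change against CD4 in WT (2 called, median -0.40) and 8 of 8 against CD8 in WT (6 called, median -0.63). In KO, 4 of 8 were called lower against CD4 and 1 against CD8, where 2 of 8 had a positive log2 fold change. The summed level of the T cell markers was 922 to 1368 CPM in the libraries labelled Treg. It was 1159 to 2029 CPM in the CD4 and CD8 libraries, so that the ranges overlapped. The log2 fold change of the B cell markers was positive in all 13 cases against CD8 in WT (9 called) and against CD4 in KO (7 called), in 10 cases against CD4 in WT (3 called) and in 9 against CD8 in KO (3 called). The 12 myeloid and dendritic cell markers summed to 132 to 173 CPM in the libraries labelled Treg, against 76.9 to 135 CPM elsewhere, ranges that overlapped. No gene of these lists was at 0 in all libraries, and the part of cell makeup, depth or number of genes detected in the members' differences was not tested.

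In ATP synthase, the lower members included most of the F1 portion, the catalytic head and central stalk that face the matrix. Of its 5 nuclear genes, 4 were lower in each comparison, namely Atp5a1, Atp5b, Atp5c1 and Atp5d. Atp5c1, which encodes the rotating subunit gamma, was at 189, 235 and 193 CPM in the CD4 WT libraries, 224, 202 and 258 in CD4 KO, 204, 198 and 192 in CD8 WT, and 202, 206 and 199.9 in CD8 KO. It was at 102, 94.3 and 117 CPM in Treg WT and 108, 90.6 and 116 in Treg KO. Every library labelled Treg was below every other library. The log2 fold change was -0.96 ± 0.12 against CD4 in WT (SE, adjusted p = 2.01e-07, edgeR) and -1.12 ± 0.12 in KO (adjusted p = 7.93e-09).

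Atp5b encodes the catalytic subunit beta and was at 333, 454 and 459 CPM in CD4 WT, 425, 359 and 366 in CD8 WT, and 260.1, 254 and 256 in Treg WT. In both genotypes the libraries labelled Treg lay below all the others, and the log2 fold change against CD4 was -0.69 ± 0.10 in WT and -0.83 ± 0.10 in KO. Atp5a1 gave -0.46 ± 0.09 and -0.66 ± 0.08, and Atp5d, for subunit delta, -0.46 ± 0.13 and -0.57 ± 0.13. Atp5e, the small subunit epsilon of the same portion, gave 0.17 ± 0.10 and 0.10 ± 0.09 and was not called against CD4. It was higher against CD8 in WT (0.26 ± 0.09) and was not called against CD8 in KO (0.04 ± 0.09).

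The 11 genes of the membrane portion Fo and the peripheral stalk went both ways, with 3 higher and 2 lower against CD4 in WT, and 1 higher and 4 lower in KO. Atp5f1, the stalk subunit b, was lower (-0.67 ± 0.11 in WT and -0.66 ± 0.11 in KO), as was Atp5g3 (-0.39 ± 0.10 and -0.59 ± 0.10). Atp5l, the small subunit g, was at 34.7, 32.2 and 31.3 CPM in CD4 WT, 29.9, 36.4 and 38.8 in CD8 WT, and 58.6, 50.8 and 56.5 in Treg WT. All Treg WT libraries were above all others of WT, with 0.78 ± 0.17 against CD4 (adjusted p = 0.000477, edgeR) and 0.69 ± 0.17 in KO. Its count is uncertain, since 70.1% of its end words are shared with other genes, 11 of them pseudogenes.

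Atp5j, which encodes the coupling factor F6 of the stalk, was called higher in WT, at 0.73 ± 0.18 against CD4 and 1.0 ± 0.18 against CD8. In KO its values were 0.16 ± 0.17 and 0.00 ± 0.17, neither called. The difference between the genotype effects in Treg and CD8 was -1.0 ± 0.25 (adjusted p = 0.312, edgeR) and did not pass.

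In complex III, the members lower against CD4 were mostly subunits of its core. Uqcrc1 and Uqcrc2 encode the large core proteins and Uqcrfs1 the Rieske iron-sulfur protein that passes electrons to cytochrome c1. All 3 were lower against CD4 in both genotypes, and none of the 5 small subunits was called there except Uqcrq in KO. Uqcrc1 was at 109, 145 and 125 CPM in CD4 WT, 148, 201 and 143 in CD8 WT, and 68.8, 72.6 and 77.2 in Treg WT. The Treg values lay below all the others, with a log2 fold change of -0.78 ± 0.17 against CD4 and -1.15 ± 0.16 against CD8. Uqcrfs1 gave -0.39 ± 0.13 in WT and -0.69 ± 0.13 in KO against CD4. Uqcrh, the hinge protein, differed little, at 335, 343 and 331 CPM in CD4 WT, 308, 289 and 314 in CD8 WT and 314, 293 and 301 in Treg WT. No complex III gene was higher in any of the 4 comparisons, while 3, 3, 4 and 5 of 8 were lower.

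Complex II, which is also the succinate dehydrogenase of the citric acid cycle, was lower in its iron-sulfur subunit. Sdhb was at 212, 254 and 241 CPM in CD4 WT, 286, 317 and 242 in CD8 WT, and 171, 169 and 154 in Treg WT. The Treg WT libraries lay below all CD4 and CD8 libraries of WT, whose ranges overlapped, and the log2 fold change was -0.51 ± 0.12 against CD4 and -0.76 ± 0.12 against CD8. Sdha, the flavoprotein that holds the active site, gave -0.14 ± 0.10 against CD4 in WT and -0.12 ± 0.10 in KO and was not called in any comparison. Sdhc, a membrane anchor, was lower in KO (-0.66 ± 0.18 against CD4), and in WT it gave -0.29 ± 0.18 and was not called. Sdhd, the other anchor, rests on few counts. It had 4, 22 and 56 counts in the CD4 WT libraries, 37, 47 and 28 in CD4 KO, 2, 3 and 0 in Treg WT and 2, 0 and 0 in Treg KO. The ratio of Treg to CD4 was 0.12 in WT (95% exact interval 0.0379 to 0.291) and 0.0418 in KO (0.005 to 0.155), intervals that cover counting error only and not the spread among the CD4 libraries.

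In complex I, calls among the core subunits were all downward and those among the accessory subunits went both ways. The 7 core members carry the flavin and iron-sulfur clusters. Of them, 3, 4, 4 and 5 were lower in the 4 comparisons and 0 were higher, with medians of -0.30, -0.38, -0.41 and -0.45. Among the 29 accessory subunits 5 were higher and 5 lower against CD4 in WT, and 3 higher and 12 lower in KO. Ndufv1, the NADH-binding subunit, gave -0.41 ± 0.16 in WT and -0.51 ± 0.16 in KO, and its neighbour Ndufv2 gave -0.76 ± 0.13 and -0.86 ± 0.13. Ndufs1, the largest subunit, was lower in WT (-0.52 ± 0.12), and in KO it gave -0.15 ± 0.12 and was not called. The split of subunits into core, accessory, head, stalk and small ones was textbook knowledge, applied after values had been seen.

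Ndufa8, an accessory subunit of the intermembrane side, was at 66.6, 71.5 and 67.6 CPM in CD4 WT, 65.4, 67.3 and 66.3 in CD8 WT, and 34.4, 25.4 and 34.8 in Treg WT. It was the member of complex I with the largest fall against CD4 in WT, at -1.10 ± 0.16 (adjusted p = 1.83e-06, edgeR), and all Treg WT libraries lay below the others. Ndufa9 fell by 1.01 ± 0.16 on the log2 scale and Ndufc2 by 0.83 ± 0.13 in the same comparison. Ndufb8 was at 242, 309.7 and 313 CPM in CD4 WT and 175, 162 and 166 in Treg WT, a log2 fold change of -0.78 ± 0.11 in WT and -0.91 ± 0.11 in KO. Its count is uncertain, because a further gene model, Gm20538, lies over its 3' end on the same strand.

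Ndufb2, a small membrane-arm subunit, went the other way. It was at 70.2, 73.9 and 81.6 CPM in CD4 WT, 75.8, 79.4 and 70.2 in CD8 WT, and 122, 116 and 93.2 in Treg WT. All Treg libraries were above the others, with 0.55 ± 0.13 against CD4 in WT (adjusted p = 0.00075, edgeR) and 0.48 ± 0.13 in KO. Braf lies over its 3' end on the opposite strand, and no source used here gives the strand setting of the counting. Ndufa1 gave 0.63 ± 0.15 and 0.41 ± 0.15 and Ndufa2 0.27 ± 0.10 in both genotypes, all called. Ndufs5, the highest of complex I against CD8 in WT (1.07 ± 0.40), shares 54.6% of its end words with another gene. Of the assembly factors, Ndufaf6 was lower in all 4 comparisons, at -0.84 ± 0.28 against CD4 in WT, and Ndufaf8 was higher against CD4 in WT (0.54 ± 0.16) and in KO (0.68 ± 0.15).

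**Figure D3:**
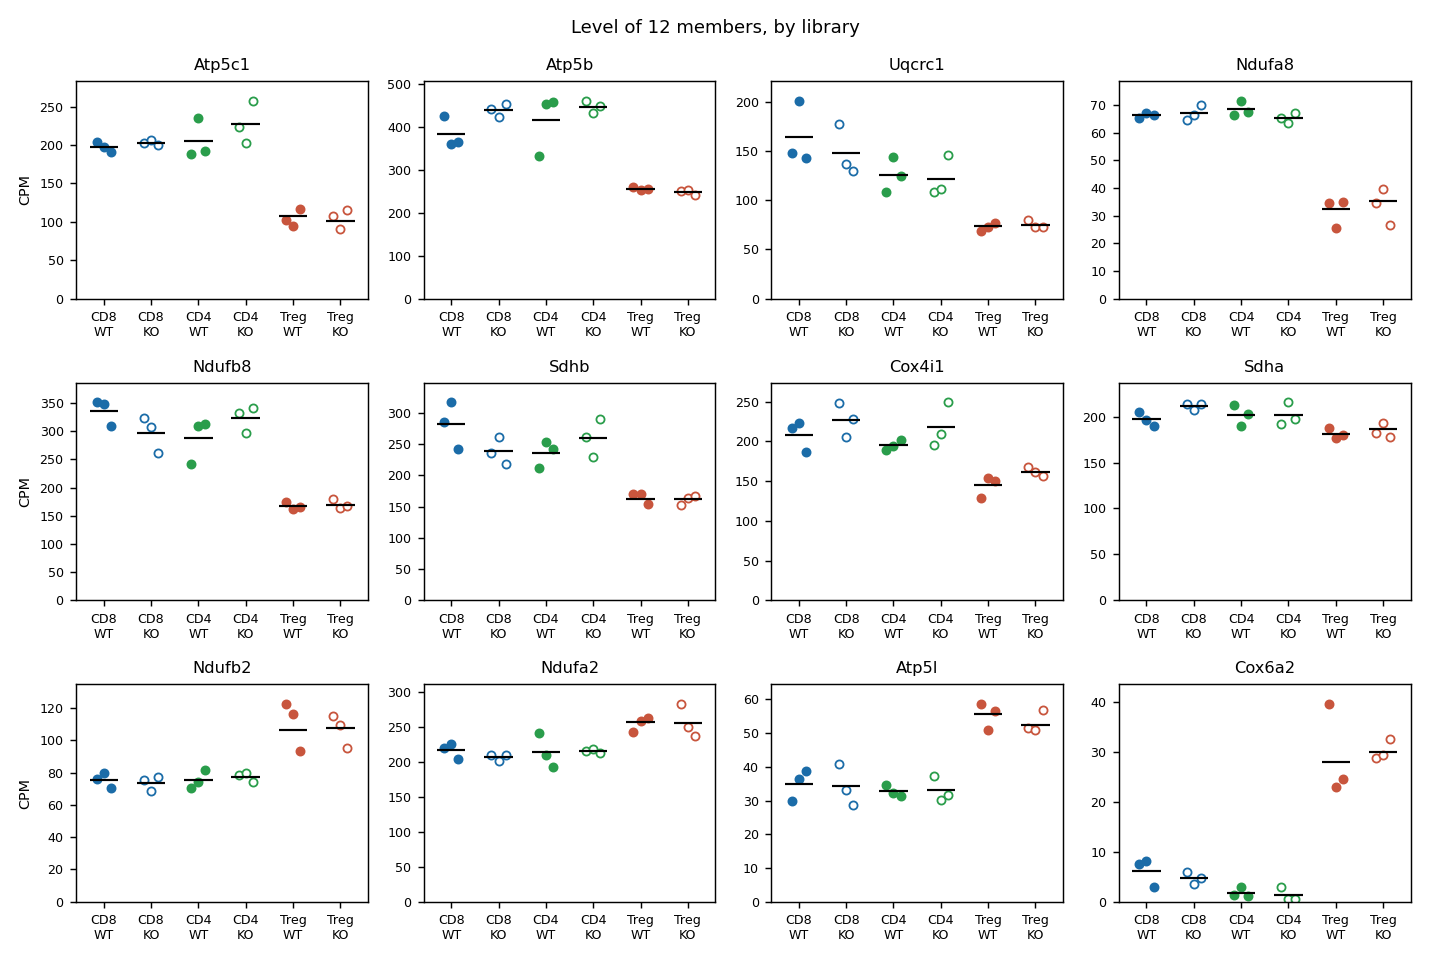
Level (CPM) of 12 members in each library, with filled points for WT, open points for KO and a black line for the group mean. Atp5c1, Atp5b, Uqcrc1, Ndufa8, Ndufb8, Sdhb and Cox4i1 are lower in all 6 libraries labelled Treg than elsewhere, Ndufb2, Atp5l and Cox6a2 are higher there, and the ranges of Sdha and Ndufa2 overlap.

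In complex IV, the largest rise in each of the 4 comparisons was that of Cox6a2. It encodes the form of subunit VIa known from heart and skeletal muscle. Its level was 1.45, 2.88 and 1.12 CPM in CD4 WT, 3.04, 0.519 and 0.465 in CD4 KO, 7.48, 8.10 and 2.95 in CD8 WT, and 5.92, 3.58 and 4.76 in CD8 KO. It was at 39.5, 23.0 and 24.5 CPM in Treg WT and 28.7, 29.3 and 32.6 in Treg KO, above every other library. These are 19 to 31 counts per library labelled Treg and 1 to 16 elsewhere. The log2 fold change against CD4 was 3.87 ± 0.42 in WT (adjusted p = 1.36e-08, edgeR) and 4.36 ± 0.42 in KO, and against CD8 2.22 ± 0.33 and 2.66 ± 0.34. Cox6a1, the general form, was at 227 ± 12.9 CPM in Treg WT (SD, n = 2) and 234 ± 16.2 in CD4 WT (SD, n = 3), and its log2 fold change of -0.02 ± 0.10 was not called.

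Cox6b2, known from testis, was at 1 to 2 counts in the Treg WT libraries and 6 to 18 in CD4 WT, and its ratio was 0.254 in WT (95% exact interval 0.065 to 0.717) and 0.247 in KO (0.0639 to 0.685). Cox6b1, the general form, was lower in KO (-0.28 ± 0.12 against CD4 and -0.42 ± 0.12 against CD8), and in WT it gave -0.25 ± 0.12 and -0.08 ± 0.12 and was not called. Cox4i1 and Cox5a, early-assembling nuclear subunits, were lower in all 4 comparisons, with -0.42 ± 0.12 and -0.46 ± 0.11 against CD4 in WT. The count of Cox4i1 is uncertain, because the gene model Gm20388 lies over its 3' end on the same strand. Ndufa4 was lower against CD4 in WT (-0.54 ± 0.21) and in KO (-0.67 ± 0.20). Cox7c, Cox6c, Cox7b and Cox7a2l were not called in any of the 4. Cox7c shares 65.2% of its end words with other genes and Cox6c 34.9%, so their counts are uncertain.

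The members that were lower tended to have longer transcripts. Among the 75 members whose mean log2 CPM reached 5, 26 have a transcript of 1000 bases or more (the median over annotated transcripts), and of these 14 were lower and 1 was higher in Treg than in CD4 in WT, with a median log2 fold change of -0.35. The 49 shorter ones had 7 lower and 8 higher, with a median of -0.07. In KO the longer ones had 16 lower and 1 higher (median -0.50) and the shorter ones 20 lower and 4 higher (median -0.22). Spearman's rho of log2 fold change with length was -0.42 in WT and -0.42 in KO over these 75 members, which share their libraries. Other genes of that level gave 0.12 and 0.13 over 5490 genes, with medians of -0.01 for shorter and -0.04 for longer transcripts in WT. In WT, 20.2% of the other longer genes were higher and 25.9% lower, against 3.85% and 53.8% of the longer members, while of the other shorter genes 22.2% were higher and 21.9% lower, against 16.3% and 14.3% of the shorter members. In KO, 28.4% of the other longer genes and 26.7% of the other shorter genes were lower, against 61.5% and 40.8% of the members. The length split was chosen after the values had been seen, and length goes together with the roles above. The 3 core genes of complex III have transcripts of 1363 to 1896 bases and its 5 small subunits 434 to 535.

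**Figure D4:**
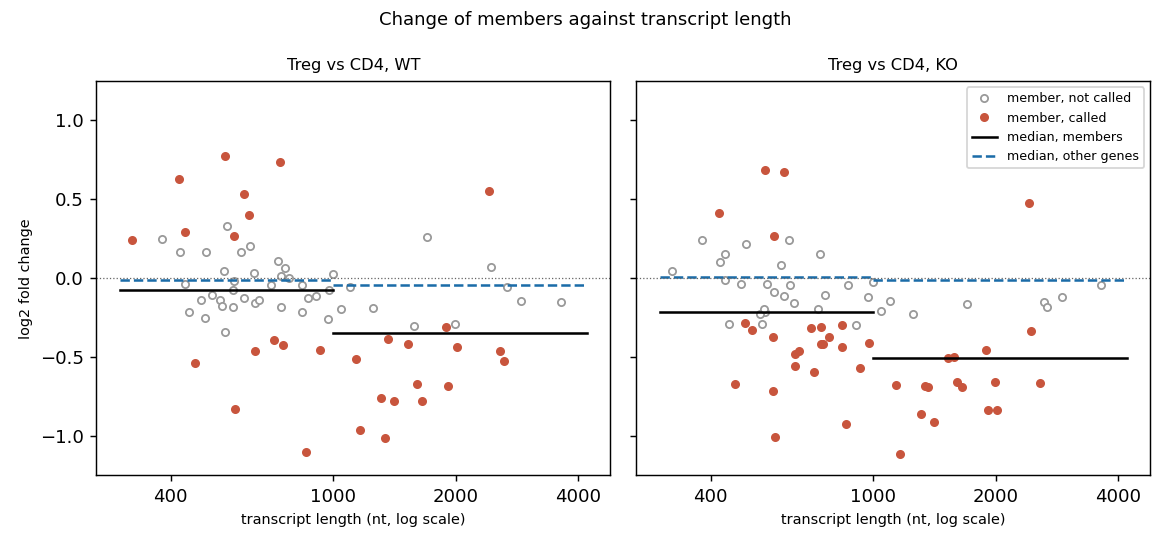
Log2 fold change of members whose mean log2 CPM reached 5 between the libraries labelled Treg and CD4 against transcript length (bases, log scale), in WT and KO, with filled red points for members called, open grey points for the rest and horizontal lines for medians below and from 1000 bases, solid for members and dashed for other genes. The longer members have medians of -0.35 and -0.50, against -0.04 and -0.01 for other genes.

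Related genes outside the set were read from lists of the pathway. Of 17 genes for pyruvate dehydrogenase and the citric acid cycle, which supply the electrons, 0 were higher and 10 lower against CD4 in WT, and likewise in KO, with medians of -0.54 and -0.59. Fh1 (fumarase) gave -1.56 ± 0.25, Idh3a -1.14 ± 0.21, Mdh2 -0.92 ± 0.13 and Cs (citrate synthase) -0.80 ± 0.12 in WT. Of 6 tested carriers and channels, 4 were lower and 0 higher in both genotypes, including Vdac1 (-1.45 ± 0.17), Slc25a4 (-1.24 ± 0.14) and Slc25a5 (-0.90 ± 0.17), the last 2 of which exchange ADP for ATP. Of 5 tested subunits under other symbols, Cyc1 (cytochrome c1, -0.86 ± 0.16) and the ATP synthase inhibitor Atpif1 (-0.76 ± 0.13) were lower in WT.

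The tested subunits encoded in mitochondrial DNA did not go one way. Of 13 such genes only 8 passed the filter on low counts, so the others are not covered. Of the 8 tested, 3 were higher and 3 lower against CD4 in WT. They included mt-Nd5 at -1.31 ± 0.13, mt-Co1 at -0.86 ± 0.11, mt-Nd4 at 0.39 ± 0.08 and mt-Nd6 at 0.43 ± 0.15. Of 45 assembly factors under other symbols, 6 were higher and 6 lower against CD4 in WT, and 6 and 10 against CD8. In KO, 4 were higher and 11 lower in both comparisons. Those called against CD4 in WT included Bcs1l (1.35 ± 0.19) and Uqcc3 (1.29 ± 0.16), which act on complex III, and Cmc1 (-1.92 ± 0.37) and Cox19 (-1.39 ± 0.32), which act on complex IV. Of 14 tested regulators, 3 were called in that comparison. Polrmt (the mitochondrial RNA polymerase, 1.01 ± 0.24) was higher and Myc (-1.12 ± 0.36) and Gabpb1 (-0.87 ± 0.22) were lower. Nrf1, Tfam and the other regulators tested did not pass there. In KO, 0 regulators were higher and 2 lower against CD4, and 2 of the mitochondrially encoded subunits were higher and 3 lower. These counts stand beside the 43% and 48% of all genes called against CD4 in WT and KO.

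CD8 and CD4 libraries differed little in these genes. In WT, 1 of 88 members was called, beside 5.37% of all genes, and in KO 0 were called, beside 3.58%. The member was Uqcrq, a small subunit of complex III, at 287, 261 and 242 CPM in CD8 WT and 187, 225 and 207 in CD4 WT. All CD8 WT libraries were above all CD4 WT libraries, with a log2 fold change of 0.34 ± 0.10 (adjusted p = 0.0457, edgeR). The call was lost with DESeq2, with the 12 CD4 and CD8 libraries alone, with only the groups compared and with agreeing pairs summed, and in KO the value was 0.10 ± 0.10. Without CD8 WT library 3, 9 members were called, beside 1265 of all genes, so that this is not a result about the members. Within each genotype, Cox6a2 was higher in every CD8 library than in any CD4 library, with 1.66 ± 0.51 in WT (adjusted p = 0.0519, edgeR) and 1.70 ± 0.55 in KO (adjusted p = 0.0847), and did not pass. An unadjusted p under 0.05 was found for 14 of 88 members in WT, beside 20% of all genes, and for 5 in KO, beside 15.4%.

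No member was called between the Ebi3 -/- and WT labels in any cell type. In CD8, 0 of 88 members were called between KO and WT, beside 0.165% of all genes, and 20 had an unadjusted p under 0.05, beside 16.3% of all genes. In CD4 and in Treg 0 were called, beside 0% of all genes in each, with 4 and 2 members at an unadjusted p under 0.05, beside 7.32% and 2.16% of all genes. DESeq2 also called 0 members in all 3. The median log2 fold change was -0.02 in CD8, 0.08 in CD4 and -0.08 in Treg, beside 0, 0 and -0.01 over all genes. Positive values made up 41, 62 and 22 of the 88, beside 49.7%, 48.2% and 49% of all genes. The differences of the genotype effect between cell types gave 0 called members in each of 3 tests, beside 0% of all genes.

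**Figure D5:**
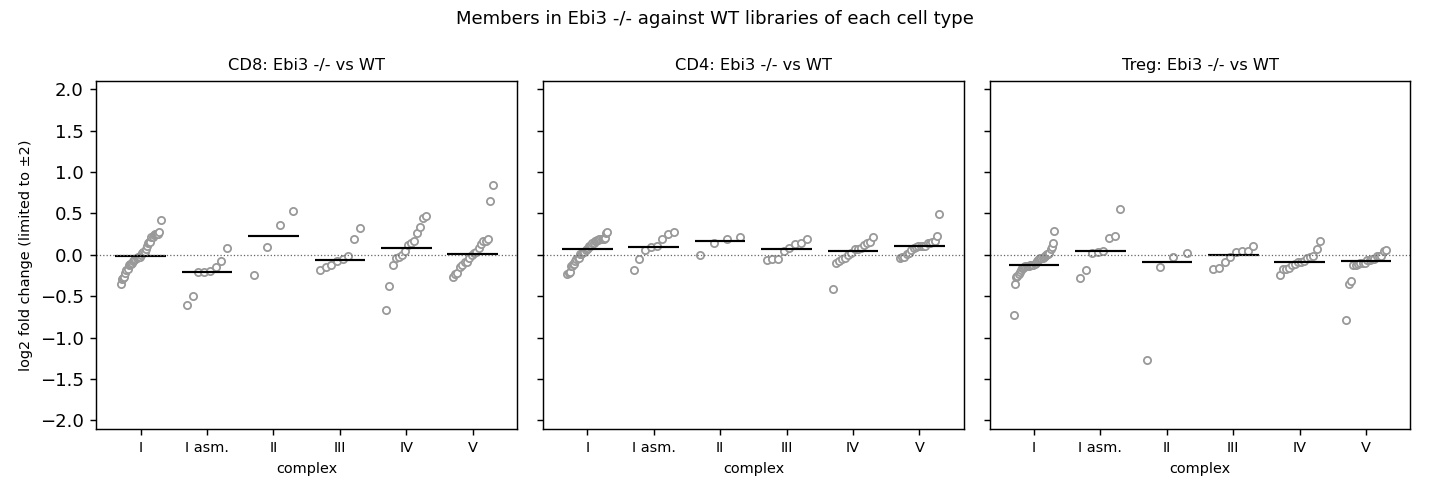
Log2 fold change of each tested member between KO and WT libraries of CD8, CD4 and Treg, by complex, with open points for members not called, a black line for the median and values limited to ±2. No member passed in any panel, and the medians over all members are -0.02, 0.08 and -0.08.

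The lowest p in CD8 was that of Atp5j. Its CD8 WT libraries were at 66.9, 40.5 and 60.4 CPM, and those of CD8 KO at 82.9, 95.7 and 84.7 CPM. The groups did not overlap, and the log2 fold change of 0.65 ± 0.16 had an adjusted p of 0.0664 (edgeR). Ndufa13, an accessory subunit of complex I also known as GRIM-19, was at 173, 211 and 166 CPM in CD8 WT, above the 152, 151 and 127 CPM of CD8 KO, with -0.36 ± 0.11 (adjusted p = 0.109, edgeR). Both passed without CD8 WT library 3, where 646 of all genes were called. Uqcrfs1 (0.32 ± 0.12), Ndufa4 (0.44 ± 0.17), Sdhc (0.37 ± 0.15) and Cox7c (0.47 ± 0.20) also lay above WT in all 3 KO libraries and did not pass. Among the 88 members, 15 lay above WT in all KO libraries and 7 below. No share over all genes was taken, so this count is not a result about the members. With 3 libraries against 3, a permutation test cannot give a p below 0.1. Falls included Ndufaf1 (-0.61 ± 0.25), Ndufaf7 (-0.49 ± 0.23), Ndufb4 (-0.291 ± 0.115), Atp5d (-0.265 ± 0.116) and Sdhb (-0.24 ± 0.11), none of which passed.

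In CD4, Ndufs1 had the lowest p, with -0.24 ± 0.11 and an adjusted p of 0.666 (edgeR), followed by Ndufb6 at 0.26 ± 0.12 and Ndufa10 at 0.27 ± 0.13. In Treg, the lowest were Ndufa1 (-0.35 ± 0.16) and Cox7a2 (-0.25 ± 0.12), both with an adjusted p of 0.999 (edgeR). Atp5j in the libraries labelled Treg was at 119, 117 and 98.9 CPM (WT) and at 87.3, 91.6 and 82.2 CPM (KO), again without overlap and now lower in KO, a log2 fold change of -0.35 ± 0.18 that did not pass.

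Markers of other cells moved between the CD8 and CD4 genotypes in opposite directions. The B cell markers summed to 4632 to 7657 CPM in CD8 WT and 7076 to 9671 in CD8 KO, and to 6143 to 10927 CPM in CD4 WT and 5420 to 7397 in CD4 KO. All 13 had a positive log2 fold change in CD8 and a negative one in CD4, with medians of 0.46 and -0.40, and none was called. The 8 T cell markers were all negative in CD8 (median -0.31) and all positive in CD4 (median 0.27), none called. Their part in the members' values was not tested.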

How the data were processed

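The deposited values were raw counts per Ensembl gene for 18 libraries, not normalised, made from QuantSeq 3' FWD libraries of 500 ng total RNA with unique molecular identifiers, per the labels' protocols. Per the submitters' processing notes, cutadapt 2.10, STAR 2.5.3a, UMI-tools 1.0.0, featureCounts, Subread 2.0.0 and FastQC were used with GRCm38 (mm10). No source used here gives their order, the annotation release, the strand setting or the handling of reads with several alignments, so counts of members with near-identical copies or overlapping genes are uncertain. Of these members, 20 share over 10% of their end words with other genes, and 65 share none.

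Names and positions came from a GRCm38 annotation that matched 55227 of the genes. Counts were filtered (filterByExpr, minimum count 10), scaled by TMM and fitted with edgeR 4.0.16 (glmQLFit, robust; glmQLFTest) in R 4.3.3 on the means of 6 groups over 18 libraries, with Benjamini-Hochberg adjustment over 12693 genes and a threshold of 0.05. Errors of log2 fold changes are standard errors from the fit. The test was checked on simulated counts with 200 changed genes and the same spread for all genes. That differs from these data, in which 43% to 50.3% of all genes were called in the Treg comparisons. The check therefore does not cover those comparisons. Alternatives used DESeq2 1.42.0, limma-voom (limma 3.58.1), other scalings and filters, fewer libraries, and agreeing pairs summed. Members and lists were chosen with earlier results of these data known. Named members were the 2 largest rises and falls of each class in each genotype comparison and in the WT cell type comparisons (mean log2 CPM of 2 or more), the 3 of lowest p elsewhere, the isoform sets, Sdha to Sdhd, and up to 4 genes of each related list. Others are named for their role or their call in every comparison, chosen after values were seen.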

Additional observations from a re-analysis of the deposited data

How the results depend on the processing

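The library totals (841892 to 2255950 counts) limit members under the floor, and 6 members were not tested. In the Treg comparisons (against CD4 and CD8 in WT, then in KO) the number of members called stayed within 1.5 times of 34, 46, 47 and 46 under every alternative run; agreeing pairs summed gave 28, 44, 43 and 37, all among those called in the main analysis, and leaving out 1 library gave 24 to 40, 37 to 43, 39 to 45 and 37 to 41. The median log2 fold change of the members was -0.257, -0.277, -0.384 and -0.36 with library totals as the only scaling and -0.299, -0.336, -0.461 and -0.446 with no filter on low counts; leaving out 1 library gave -0.235 to -0.146 for Treg against CD8 in WT. Without the members with shared 3' ends, 30, 36, 39 and 37 of 68 were called. Counting Ndufa4 with complex I changed class counts by at most 1.

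In CD8 against CD4 in WT, 1 member was called and 3 with no filter (beside 963 of all genes). The count was 0 with DESeq2, 0 with only the groups compared, 0 with agreeing pairs summed and 0 with only the 12 CD4 and CD8 libraries. It was 0 to 9 when 1 library was left out, the 9 without CD8 WT library 3 (beside 1265 of all genes). In KO, 0 became 1 with no filter (beside 693 of all genes) and 1 with limma-voom (beside 457), both Cox6a2. It became 1 with only the groups compared (Sdhd, beside 525). It was 0 to 1 when 1 library was left out (Cox6a2, without CD4 KO library 1, beside 288). Between genotypes in CD8, 0 became 1 with no filter (Atp5j, beside 447 of all genes). It was 0 to 2 when 1 library was left out (Ndufa13 and Atp5j, without CD8 WT library 3, beside 646). The difference of the genotype effect between CD4 and CD8 gave 0 to 4 when 1 library was left out. The 4 were Sdhb, Atp5j2, Atp5d and Ndufa13, without CD8 WT library 3 (beside 859 of all genes). The difference between Treg and CD8 gave 1 with no filter (Atp5j, beside 46 of all genes). Apart from fewer libraries or a different number of genes tested, the cause was not tested.

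With the replicate number as a block, 32, 46, 46 and 44 members were called in the Treg comparisons and 0 in CD8 against CD4 in WT. The labels do not say whether the numbers pair the libraries. Of 45 same-number pairs, 3 had a correlation of deviations over 0.1 (median -0.005, range -0.34 to 0.307). Pairs of different number reached -0.348 and 0.316, so these correlations cannot decide whether libraries of 1 number share a source.

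Signs near 0 turned as follows (log2 fold changes). Sdha between genotypes in CD4 gave 0.013 with RLE size factors, 0.014 with no filter, 0.014 with DESeq2, 0 with limma-voom and 0.004 with only the 12 CD4 and CD8 libraries. Uqcrh in Treg against CD8 in WT gave -0.023 with RLE size factors, -0.11 with library totals, -0.169 with no filter, -0.023 with DESeq2 and -0.039 with only the groups compared. When 1 library was left out, the ranges between genotypes in CD8 were -0.011 to 0.16 for Ndufaf6 and -0.301 to 0.022 for Uqcrc1. In CD4 they were -0.01 to 0.453 for Ndufaf6, -0.208 to 1.253 for Sdhd, -0.047 to 0.036 for Sdha, -0.209 to 0.058 for Uqcrc1, -0.138 to 0.056 for Uqcrb, -1.792 to 0.151 for Cox6a2, -0.265 to 0.207 for Atp5s and -0.127 to 0.072 for Atp5f1. In Treg they were -0.17 to 0.635 for Ndufaf5, -0.01 to 0.049 for Sdha, -0.05 to 0.341 for Cox6a2 and -0.002 to 0.117 for Atp5d. In CD8 against CD4 in WT they were -0.079 to 0.03 for Ndufaf2, -0.392 to 0.032 for Ndufa4, -0.069 to 0.472 for Atp5g2 and -0.597 to 0.047 for the second Atp5o identifier, and in Treg against CD8 in WT -0.041 to 0.021 for Uqcrh.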

Other observations

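Ndufb1-ps carries a pseudogene symbol and is annotated as a bidirectional promoter long non-coding RNA on chromosome 12 (101968090 to 101977068, GRCm38), so it is no member. It had 5043 counts, at 144 to 206 CPM in the CD4 and CD8 libraries and 155 to 187 CPM in those labelled Treg. Its log2 fold change was -0.04 ± 0.11 (SE) in Treg against CD4 in WT and -0.25 ± 0.11 in KO (adjusted p = 0.064, edgeR), and no comparison called it. The other 12 genes with a matching symbol are processed pseudogenes, of which Cox6c2 had the most counts (94). Cox7b2, known from testis, had 16 of its 17 counts in the libraries labelled Treg. This is not particular to Cox7b2, since those libraries had a count for 20034 to 20596 genes, against 16193 to 17338 in the others.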
